A study of Mus musculus with 51 samples.

Results

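The comparison asked where bleomycin changed gene expression differently in CD45+ leukocytes and in triple-negative lung cells. For each gene, the log2 change from saline to bleomycin in triple-negative cells was subtracted from the log2 change in CD45+ cells. A positive difference therefore means a larger rise, or a smaller fall, in CD45+ cells. The comparison used 26 of the 51 libraries of the series and all 4 groups entered a single fit. Male C57/B6 mice were given saline or bleomycin into the trachea, and lungs were taken at day 14. Cells were sorted by flow cytometry. CD45+ cells are the leukocytes, and triple-negative cells lack EpCAM, CD45 and CD31 and so hold fibroblasts and other mesenchymal cells. The groups were CD45+ saline (5 libraries), CD45+ bleomycin (8), triple-negative saline (5) and triple-negative bleomycin (8). The labels named no transgene, deletion or Cre. A sort on the absence of 3 markers defines its cells by what they lack, so the triple-negative fraction can hold any cell that escaped the other gates.

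Bleomycin is a DNA-damaging drug that injures the lung epithelium, and in mice the injury is followed by inflammation and a scar of collagen-rich matrix. Monocytes enter the injured lung and become macrophages that clear debris and secrete factors acting on fibroblasts. Fibroblasts divide, spread and deposit matrix. The question here is which of these programs moved in the leukocytes, which in the mesenchymal cells, and which in both.

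The fractions held the cells of their sort. Ptprc, which encodes CD45, averaged 1434 ± 199 CPM (CPM are counts scaled to a common library total; SD, n = 5) in saline and 956 ± 144 CPM (n = 8) in bleomycin CD45+ libraries, against 24.3 and 12.2 CPM in triple-negative libraries. The summed level of 12 mesenchymal markers ran from 38480 to 90890 CPM in triple-negative libraries and from 155.7 to 8303 CPM in CD45+ libraries. Totals of the 26 libraries ran from 17789524 to 36514885 counts. The 12 leukocyte markers summed to 64.5 to 363 CPM in triple-negative libraries, so leukocyte transcripts were present there at a low level in both treatments, from 64.5 to 291 CPM after saline. The 12 epithelial markers summed to 383 to 3133 CPM and the 12 endothelial markers to 210.5 to 987 CPM in CD45+ libraries. The endothelial sum was lower in bleomycin than in saline CD45+ libraries (210.5 to 436 against 396 to 987 CPM, with overlap), and its part in the results was not tested beyond a fit with marker covariates given in the closing section. Mitochondrial genes took 0.512% to 1.23% of the reads counted in triple-negative libraries after bleomycin, against 0.260% to 0.474% after saline, without overlap. In CD45+ cells these shares were 0.487% to 0.615% and, with overlap, 0.415% to 0.495%.

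Some libraries, named here as in the labels, stood apart. Bleomycin_CD45_613 carried 8303 CPM of mesenchymal markers against 182 to 2425 CPM in the other 7, and Bleomycin_CD45_616 was second at 2425 CPM. Saline_CD45_646 carried 1106 CPM of 30 mitosis genes against 391.7 to 532 CPM in the other 4. Saline_Negative_663 had 250 CPM of Tg, the thyroglobulin gene, where the other 4 had 1.59 to 1.82 CPM, and Saline_Negative_661 had the highest erythroid sum (80.4 CPM). Results that rest on these libraries are given with and without them. Replicate numbers differed between the fractions, so libraries of 1 animal could not be tied together. The libraries were treated as independent, and p-values measure the spread between these libraries.

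**Figure D1:**
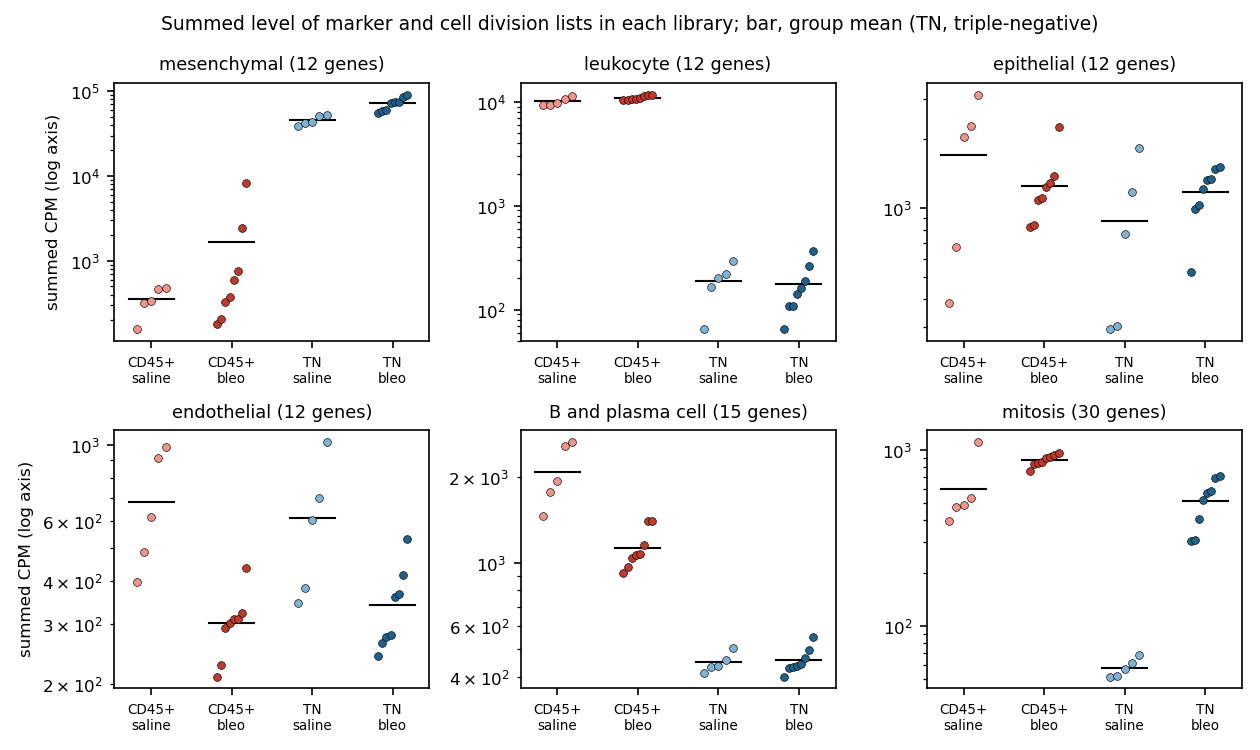
Summed CPM (log axis) of 4 sort-check lists and of the B cell and mitosis lists in each of the 26 libraries, 1 point per library, with a bar at the group mean. The bleomycin CD45+ library at 8303 CPM of mesenchymal markers and the saline CD45+ library at 1106 CPM of mitosis genes stand above their groups. The B and plasma cell sum of triple-negative libraries consists mostly of Xbp1 and Sdc1, which are not limited to B cells.

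The effect of bleomycin differed between the fractions for a large share of the genes. Of 18266 genes tested, 4071 (22.3%) had a higher effect in CD45+ cells and 2600 (14.2%) a lower one, by the quasi-likelihood test of edgeR with Benjamini-Hochberg adjustment and a threshold of 0.05. A difference of at least 2-fold was reached by 1701 genes (9.31%) and 1139 genes (6.24%). Within CD45+ cells 5276 genes (28.9%) rose and 4549 (24.9%) fell, and within triple-negative cells 3913 (21.4%) rose and 4789 (26.2%) fell. The median difference over all genes was 0.06 on the log2 scale. The split between higher and lower depended on library scaling: higher calls made up 61.0% of calls with TMM factors, 52.2% with RLE size factors and 43.2% with upper quartile factors, where the median gene stood at -0.08. It was 47.7% with all 51 libraries in the fit. Bulk libraries cannot tell fewer cells of a type from less RNA per cell, and every level below is a share of the RNA of its fraction.

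The deposited table lists the libraries in 2 stretches of columns, each holding all 4 groups, and what they stand for is not given in the sources used here. Within the first stretch alone 2581 of 18711 genes tested were higher and 1477 lower, and within the second 2269 and 1756 of 18684. With the stretch as a covariate the counts were 4064 and 2610.

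The calls were of several kinds. Opposite changes, each past its own threshold, were found for 791 genes that rose in CD45+ and fell in triple-negative cells, and for 356 genes that fell in CD45+ and rose in triple-negative cells. Of the genes with a higher effect in CD45+ cells, 1565 rose there without a call in triple-negative cells, and 951 fell in triple-negative cells without a call in CD45+ cells. Of the genes with a lower effect, 1004 fell in CD45+ cells without a call in triple-negative cells, and 785 rose in triple-negative cells without a call in CD45+ cells. In a common direction, 2096 genes rose in both fractions, and for 1192 of them the 95% interval of the difference lay within 2-fold either way. Of 1972 genes that fell in both, 1058 met that bound. For 4610 genes called in CD45+ cells but not in triple-negative cells, the difference itself was past the threshold in 2569, and for 3487 called in triple-negative cells alone, in 1736.

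**Figure D2:**
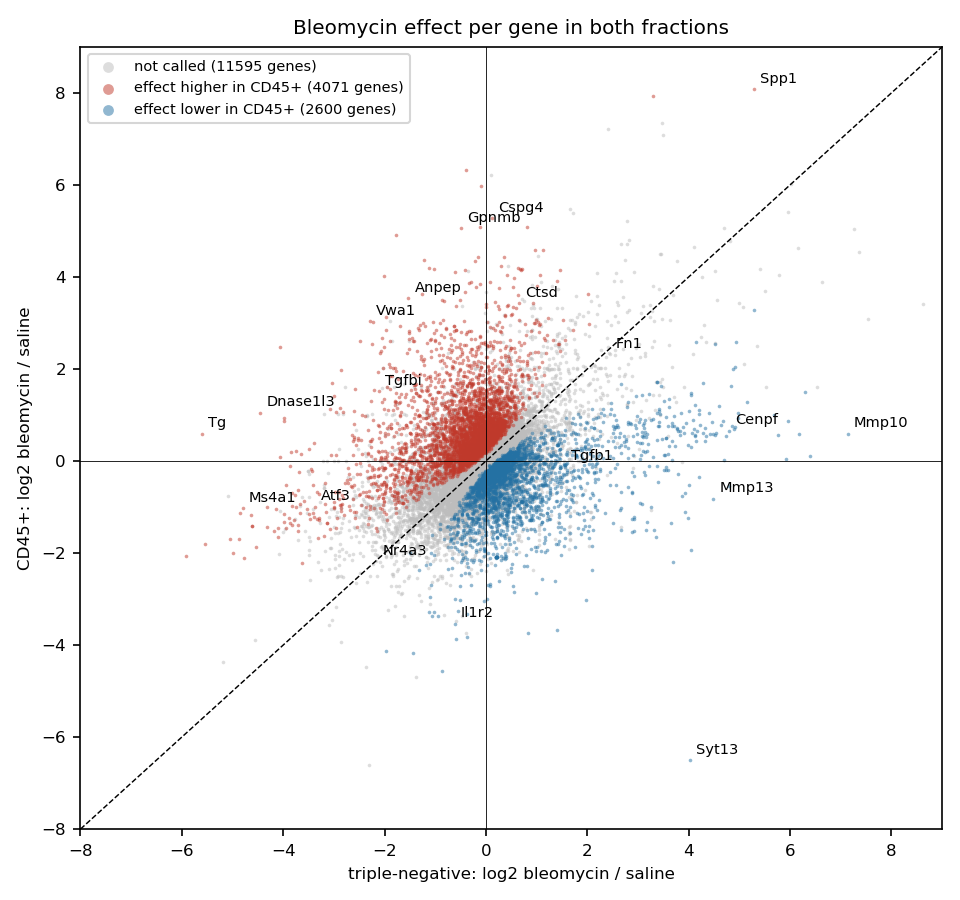
Log2 ratio of bleomycin to saline in triple-negative cells (horizontal) and CD45+ cells (vertical) for all 18266 genes tested, coloured by the call on the difference. The dashed line marks equal effects. Fn1 and Nr4a3 lie on it, Gpnmb, Anpep and Vwa1 lie far above it, and Mmp10, Mmp13 and Cenpf far below it. Tg and Syt13 each rest on 1 library.

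Several genes with large positive differences, Gpnmb, Anpep, Cldn1 and Cspg4 among them, rose in CD45+ cells from low levels, and triple-negative cells had more of them after saline. Gpnmb encodes a membrane glycoprotein of lysosome-rich macrophages. Its level was 3.63, 11.4, 11.9, 13.2 and 25.8 CPM in saline CD45+ libraries and 256 to 662.8 CPM (median 396) after bleomycin. The triple-negative level was 114, 121, 142, 143 and 144 CPM after saline and 65.5 to 132 CPM (median 85.2) after bleomycin. The CD45+ groups did not overlap and the triple-negative groups did. The difference was 5.55 ± 0.41 (log2, SE; adjusted p = 6.64e-10).

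Anpep, which encodes the cell-surface aminopeptidase CD13, crossed over between the fractions. It was 15.3, 20.8, 22.3, 31.1 and 33.0 CPM in saline and 237 to 372 CPM (median 282) in bleomycin CD45+ libraries. Triple-negative libraries had 162, 205, 229, 322 and 378 CPM after saline and 75.2 to 118 CPM (median 86.6) after bleomycin. Neither pair of groups overlapped, and the direction was opposite (difference 5.08 ± 0.25, adjusted p = 1.16e-12).

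Cldn1, a tight junction claudin, rose from 2.20 ± 0.84 to 46.2 ± 16.2 CPM (SD, n = 5 and 8) in CD45+ cells and fell from 27.1 ± 4.78 to 11.6 ± 4.47 CPM in triple-negative cells (difference 5.60 ± 0.39, adjusted p = 2.22e-10). Cspg4, the proteoglycan NG2 that marks pericytes, rose from 1.15 ± 0.72 to 46.0 ± 8.72 CPM in CD45+ cells and stood at 130 ± 35.8 and 142 ± 46.5 CPM in triple-negative cells (5.16 ± 0.41, 6.17e-10). It was the 1 pericyte gene of 12 tested that was called. In CD45+ cells the lowest bleomycin library had 31.6 CPM and the highest saline library 2.12 CPM. Dnase1l3, a secreted DNase, rose from 13.0 ± 2.53 to 26.9 ± 6.93 CPM in CD45+ cells and fell from 2.71 ± 1.10 to 0.109 ± 0.087 CPM in triple-negative cells (5.51 ± 0.52, 5.18e-10).

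Genes that rose in CD45+ and fell in triple-negative cells were ordered by the smaller of their 2 log2 changes, and the matrix gene Vwa1 came first (3.04 and -2.29). It was 0.295, 0.623, 0.772, 0.912 and 1.03 CPM in saline and 2.80 to 8.11 CPM (median 6.16) in bleomycin CD45+ libraries. Among triple-negative libraries the values were 57.2, 63.3, 78.5, 89.5 and 119 CPM after saline and 11.5 to 21.6 CPM (median 16.1) after bleomycin. The groups did not overlap in either fraction (difference 5.34 ± 0.35, adjusted p = 1.86e-11). Qpct, which encodes glutaminyl cyclase, moved alike, from 8.92 ± 0.93 to 32.1 ± 5.92 CPM and from 66.2 ± 16.4 to 17.9 ± 7.29 CPM (3.73 ± 0.31, 1.80e-09). Scin, an actin-severing protein (4.82 ± 0.39, 6.79e-10), and Prokr1, a prokineticin receptor (4.44 ± 0.59, 5.43e-07), did so at lower levels, with at most 7.05 CPM of Scin and 1.57 CPM of Prokr1 in a CD45+ library. Ptx3, a secreted pattern recognition protein, differed by 4.74 ± 1.13 (adjusted p = 7.56e-04), and by 3.84 without Bleomycin_CD45_613, which had 9.10 CPM where the others had at most 3.98 CPM. Tg had the largest positive difference among genes that reached 5 CPM in a group (6.20 ± 1.40, adjusted p = 0.00124), but it was 1.32 without Saline_Negative_663, and limma voom with quality weights did not call it (2.82, adjusted p = 0.192). Fgf14 was at 0 in all 5 saline CD45+ libraries and at most 0.157 CPM after bleomycin, so no fold is given for it there. In triple-negative cells it fell from 5.23 ± 0.84 to 2.17 ± 0.61 CPM.

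Among the largest negative differences were secreted proteases and signals that rose from near 0 in triple-negative cells. Mmp13, a collagenase, was 16.3, 16.9, 18.9, 23.2 and 26.6 CPM in saline and 8.00 to 14.2 CPM (median 12.01) in bleomycin CD45+ libraries. In triple-negative libraries it was 0.119, 0.127, 0.134, 0.398 and 0.652 CPM after saline and 4.51 to 9.67 CPM (median 5.83) after bleomycin. The groups did not overlap in either fraction (difference -5.31 ± 0.41, adjusted p = 1.11e-10). Mmp10, the protease stromelysin-2, rose from 0.053 ± 0.049 to 7.79 ± 2.78 CPM in triple-negative cells and was 0.201 ± 0.112 and 0.306 ± 0.266 CPM in CD45+ cells (-6.55 ± 1.004, 2.42e-06). Mmp8, the neutrophil collagenase, rose from 0.473 ± 0.264 to 12.2 ± 4.98 CPM in triple-negative cells and was 35.1 ± 7.40 and 35.7 ± 13.8 CPM in CD45+ cells (-4.67 ± 0.53, 8.67e-08).

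Tnfsf11, the cytokine RANKL, fell from 22.3 ± 5.74 to 7.82 ± 1.01 CPM in CD45+ cells and rose from 0.145 ± 0.068 to 1.51 ± 0.58 CPM in triple-negative cells (-4.83 ± 0.44, 4.64e-10). Tnfsf18, the ligand of GITR, rose from 0.0966 ± 0.0305 to 7.51 ± 4.84 CPM in triple-negative cells (-5.58 ± 1.05, 1.90e-04, and -4.74 without Saline_CD45_644). Gjb2, the gap junction protein connexin 26, fell from 5.24 ± 1.31 to 1.14 ± 0.56 CPM in CD45+ cells and rose from 0.219 ± 0.199 to 2.77 ± 1.21 CPM in triple-negative cells (-5.87 ± 0.64, 3.37e-08). Serpinb2, a plasminogen activator inhibitor, did the same, from 17.7 ± 3.34 to 4.66 ± 3.92 CPM and from 0.310 ± 0.307 to 5.36 ± 2.35 CPM (-5.98 ± 0.86, 3.47e-06, and -6.74 without Saline_Negative_661). Slc7a11, the cystine transporter, fell from 74.4 ± 34.5 to 26.1 ± 5.86 CPM and rose from 0.583 ± 0.178 to 2.39 ± 0.68 CPM (-3.53 ± 0.42, 2.03e-07). Syt13, a synaptotagmin, had the most negative difference (-10.52 ± 1.71, 2.14e-05), with 102 CPM in Saline_CD45_646 against at most 3.82 CPM in the other 4, and without that library it was -6.49. The same library lowered Mex3a, an RNA-binding protein (-3.71 ± 0.64, and -2.28 without it), Inava, a regulator of innate signalling and cell junctions (-4.81 ± 0.89, and -4.15), and Cldn4, an epithelial claudin (-4.70 ± 0.93, and -3.58).

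Nearly all mitosis genes had a lower effect in CD45+ cells. Cells in G2 and mitosis transcribe a common set of genes for spindle assembly, chromosome attachment and cytokinesis. Of 30 mitosis genes tested, 29 had a lower effect in CD45+ cells and 0 a higher one, against 14.2% and 22.3% of all genes, and the median difference was -2.90. All 30 rose in triple-negative cells (median 3.67) and 21 rose in CD45+ cells (median 0.75), against 21.4% and 28.9% of all genes. The summed level of the list was 51.4, 51.8, 56.8, 61.3 and 67.8 CPM in saline triple-negative libraries and 303 to 706 CPM (median 545) after bleomycin. In CD45+ libraries it was 391.7, 473, 483, 532 and 1106 CPM after saline and 755 to 959 CPM (median 873) after bleomycin. Triple-negative libraries were below CD45+ libraries in both treatments, and the ranges came closer after bleomycin.

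Cenpf, a kinetochore protein, was 0.398, 0.401, 0.508, 0.595 and 0.825 CPM in saline and 9.28 to 21.8 CPM (median 15.5) in bleomycin triple-negative libraries. In CD45+ libraries it was 7.02, 9.16, 9.88, 11.3 and 23.6 CPM after saline and 14.9 to 24.1 CPM (median 18.9) after bleomycin. The CD45+ groups overlapped through Saline_CD45_646 alone, and the difference was -4.13 ± 0.40 (adjusted p = 7.36e-09). Bub1, a kinase of the spindle checkpoint, rose from 0.217 ± 0.054 to 5.78 ± 1.76 CPM in triple-negative and from 4.94 ± 2.91 to 9.01 ± 1.25 CPM in CD45+ cells (-3.81 ± 0.45, 7.83e-08). Ndc80, which binds microtubules at the kinetochore, differed by -3.89 ± 0.45 (4.74e-08), and Ube2c, the ubiquitin-conjugating enzyme of the anaphase-promoting complex, by -3.68 ± 0.50 (1.62e-06). Mki67, a proliferation marker, rose from 4.92 ± 1.15 to 62.8 ± 20.8 CPM in triple-negative cells and was 101 ± 53.6 and 137 ± 15.3 CPM in CD45+ cells (-3.23 ± 0.36, 1.61e-07).

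Of 28 genes of DNA replication, 10 had a lower and 1 a higher effect in CD45+ cells (median -0.42), against 14.2% and 22.3% of all genes. Without Saline_CD45_646 the counts were 9 and 4. Ccne1, the cyclin of S phase entry, differed by -2.01 ± 0.35 (adjusted p = 5.01e-05) and Mcm5, a subunit of the replicative helicase, by -1.65 ± 0.27 (2.49e-05). Uhrf1, which maintains DNA methylation, differed by -2.83 ± 0.54 and by -1.995 without Saline_CD45_646, and Rrm2, a subunit of ribonucleotide reductase, by -2.41 ± 0.50 and -1.63. Pola1, the catalytic subunit of DNA polymerase alpha, went the other way (0.80 ± 0.16, 3.67e-04), with 17.5 ± 1.65 and 12.5 ± 1.47 CPM in triple-negative cells.

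The promoters of these genes are shown because 2 short motifs of the late cell cycle are known in them, the CCAAT box and the cell cycle homology region. Those shown were picked from called mitosis genes whose promoter holds both motifs, so they do not stand for the whole list. The promoters span 250 bases before to 50 after the start of each gene (RefSeq, GRCm38.p6), and capitals mark matches on either strand. The CCAAT box reads ATTGG on the other strand. The homology region was searched as TTTGAA, which reads TTCAAA on the other strand, and as TTCGAA, which is its own reverse complement. The regions are chr1:189688037-189688336 (Cenpf, minus strand), chr2:127831810-127832109 (Bub1, minus strand) and chr2:164769679-164769978 (Ube2c, plus strand).
Cenpf: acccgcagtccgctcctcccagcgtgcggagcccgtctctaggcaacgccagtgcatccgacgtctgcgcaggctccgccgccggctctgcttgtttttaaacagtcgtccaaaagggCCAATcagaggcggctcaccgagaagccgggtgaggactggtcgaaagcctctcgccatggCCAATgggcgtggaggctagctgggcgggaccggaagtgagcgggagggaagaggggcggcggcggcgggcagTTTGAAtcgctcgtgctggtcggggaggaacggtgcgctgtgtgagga
Bub1: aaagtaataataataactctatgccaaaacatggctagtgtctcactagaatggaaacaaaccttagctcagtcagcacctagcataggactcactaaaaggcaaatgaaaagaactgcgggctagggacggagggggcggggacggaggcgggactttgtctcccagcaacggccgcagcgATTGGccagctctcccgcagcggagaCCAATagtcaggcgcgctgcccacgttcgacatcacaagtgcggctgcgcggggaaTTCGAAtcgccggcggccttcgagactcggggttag
Ube2c: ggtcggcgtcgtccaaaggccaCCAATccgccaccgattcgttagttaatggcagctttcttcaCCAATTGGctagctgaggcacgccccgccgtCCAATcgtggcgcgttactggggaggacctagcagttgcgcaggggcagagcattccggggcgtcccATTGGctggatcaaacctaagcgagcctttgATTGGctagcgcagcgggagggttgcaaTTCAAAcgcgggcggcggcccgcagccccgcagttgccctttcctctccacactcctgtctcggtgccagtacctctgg
A promoter was found for 25 of the 30 mitosis genes. The CCAAT box was present in 84.0% of these 25, either form of the homology region in 80.0% and both elements in 76.0%. Among the 13113 tested genes with a promoter the shares were 41.7%, 17.1% and 6.82%. For the 23 DNA replication genes with a promoter they were 65.2%, 21.7% and 17.4%. CCAAT may overlap its own reverse form, as in Ube2c. Each gene was counted once, as a match if the promoter of any of its listed starts matched. A match is a description of these letters and not of a bound site.

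Macrophage and lysosome genes rose further in CD45+ cells by the counts that follow. Macrophages that arise from monocytes in fibrotic lung are known for lysosomal, lipid-handling and matrix-related genes. Of 23 genes of monocyte-derived macrophages, 12 had a higher and 1 a lower effect in CD45+ cells (median 0.95), and 18 rose in CD45+ cells. Of all genes tested, 22.3% had a higher and 14.2% a lower effect, and 28.9% rose in CD45+ cells. Of 24 lysosomal genes, 19 had a higher and 0 a lower effect (median 1.22). In CD45+ cells 23 of the 24 rose and 0 fell. In triple-negative cells 10 rose and 4 fell, against 21.4% and 26.2% of all genes. Of 16 lipid-handling genes, 9 had a higher and 1 a lower effect (median 1.16), and of 15 genes of resident alveolar macrophages, 5 and 0 (median 1.25), a share of higher effects not far above that of all genes. The lysosomal counts were 20 and 0 within each stretch of columns.

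Ctsd, an aspartic protease of the lysosome, was 613.8, 615.2, 637.4, 702 and 1079 CPM in saline and 5307 to 10550 CPM (median 7477) in bleomycin CD45+ libraries. The triple-negative level was 623.2, 624.6, 675, 700 and 716 CPM after saline and 788 to 1557 CPM (median 955) after bleomycin. The saline levels of the fractions were alike, no pair of treatment groups overlapped, and the rise was larger in CD45+ cells (difference 2.78 ± 0.24, adjusted p = 2.78e-09). Ctsl, a cysteine protease of the lysosome, rose from 87.0 ± 13.6 to 483 ± 124 CPM in CD45+ cells and fell from 866 ± 89.4 to 573 ± 54.6 CPM in triple-negative cells (3.07 ± 0.19, 1.74e-11). Cd63, a membrane protein of late endosomes, rose from 24.0 ± 9.41 to 220 ± 48.9 CPM in CD45+ cells and from 145 ± 17.7 to 206 ± 33.1 CPM in triple-negative cells (2.68 ± 0.25, 1.22e-08). Ctsk, a collagen-degrading cathepsin, differed by 2.99 ± 0.44 (1.13e-05) and by 3.62 without Saline_CD45_648. Cd9, a tetraspanin, rose from 191 ± 55.0 to 876 ± 80.9 CPM in CD45+ cells and fell from 287 ± 30.3 to 157 ± 14.5 CPM in triple-negative cells (3.06 ± 0.17, 1.79e-12).

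Spp1, which encodes osteopontin, was 10.8, 14.5, 17.9, 21.4 and 26.4 CPM in saline and 3492 to 7484 CPM (median 4685) in bleomycin CD45+ libraries. Triple-negative libraries had 14.2, 51.5, 83.4, 121 and 164 CPM after saline and 1834 to 5865 CPM (median 3197) after bleomycin. It rose without overlap in both fractions, by 8.08 ± 0.37 and 5.29 ± 0.37 on the log2 scale, and the difference was 2.79 ± 0.53 (adjusted p = 2.19e-04).

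In lipid handling, Apoe, which encodes apolipoprotein E, rose from 1391 ± 468 to 6883 ± 1658 CPM in CD45+ cells and was 1695 ± 234 and 1407 ± 259 CPM in triple-negative cells (2.58 ± 0.26, 2.85e-08). Fabp5, a fatty acid carrier, rose from 3.87 ± 0.64 to 54.7 ± 10.9 CPM and from 1.49 ± 0.53 to 3.05 ± 1.37 CPM (2.81 ± 0.34, 5.76e-07). Lpl, lipoprotein lipase, rose in both (1.87 ± 0.26, 3.63e-06), as did Lipa, the acid lipase of the lysosome (1.77 ± 0.14, 4.29e-10). Ces1d, a carboxylesterase also listed for alveolar fibroblasts, was the exception (-1.66 ± 0.49, 0.0106, and -0.85 with adjusted p = 0.0696 with marker covariates for epithelial and endothelial cells). Of the resident macrophage genes, Plet1 differed by 2.81 ± 0.59 (6.52e-04, and 3.53 without Saline_CD45_648) and Car4, a carbonic anhydrase, by 3.10 ± 0.65 (6.34e-04, and 2.29 without Saline_Negative_661). Siglecf, a lectin of alveolar macrophages and eosinophils, differed by 1.79 ± 0.67 (0.0396), by 1.53 with adjusted p = 0.0890 by limma voom, by 1.69 with 0.0896 when all 51 libraries were fitted, and by 0.91 with adjusted p = 0.303 without Saline_Negative_661. Its call was lost in 13 of the 26 fits that left out 1 library. Mmp12, the macrophage elastase, rose in both fractions and went against the list: it rose from 63.9 ± 5.00 to 623.4 ± 154 CPM in CD45+ cells and from 0.516 ± 0.322 to 20.4 ± 15.2 CPM in triple-negative cells (-1.997 ± 0.67, 0.0183). That call was lost when all 51 libraries were fitted (-2.09, adjusted p = 0.0614), with limma voom (-1.875, 0.263) and within each stretch of columns (-2.01, 0.0971, and -2.001, 0.180). Arg1, the arginase of alternatively activated macrophages, rose in both, and its difference did not pass the threshold (-0.87 ± 1.04, 0.521).

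Promoters of lysosomal genes are shown for a motif of factors that control lysosome genes. It was searched as TCACGTG, which reads CACGTGA on the other strand, and as TCACATG, which reads CATGTGA there. This motif was chosen after values were seen, and the promoters shown were picked from called lysosomal genes for holding it. The regions are chr7:142387778-142388077 (Ctsd, minus strand) and chr8:13158911-13159210 (Lamp1, plus strand), again from RefSeq on GRCm38.p6, with matches in capitals.
Ctsd: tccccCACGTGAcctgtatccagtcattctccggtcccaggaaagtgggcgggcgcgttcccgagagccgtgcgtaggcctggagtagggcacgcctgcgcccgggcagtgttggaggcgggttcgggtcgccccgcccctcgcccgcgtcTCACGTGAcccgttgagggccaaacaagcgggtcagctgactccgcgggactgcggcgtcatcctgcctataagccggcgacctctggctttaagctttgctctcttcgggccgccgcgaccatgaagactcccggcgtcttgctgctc
Lamp1: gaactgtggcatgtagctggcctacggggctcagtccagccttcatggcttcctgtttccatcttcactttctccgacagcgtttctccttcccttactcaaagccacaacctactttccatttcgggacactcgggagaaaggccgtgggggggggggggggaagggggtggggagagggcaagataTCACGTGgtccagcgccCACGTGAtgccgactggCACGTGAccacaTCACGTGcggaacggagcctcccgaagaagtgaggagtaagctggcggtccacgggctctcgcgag
Of 16 lysosomal genes with a promoter, 37.5% held the motif, against 9.18% of the 13113 tested genes with a promoter. Lamp1, a membrane protein of the lysosome, rose in CD45+ cells from 546 to 1181 CPM and stood at 832 and 801 CPM in triple-negative cells (difference 1.17 ± 0.12, adjusted p = 4.40e-08).

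**Figure D3:**
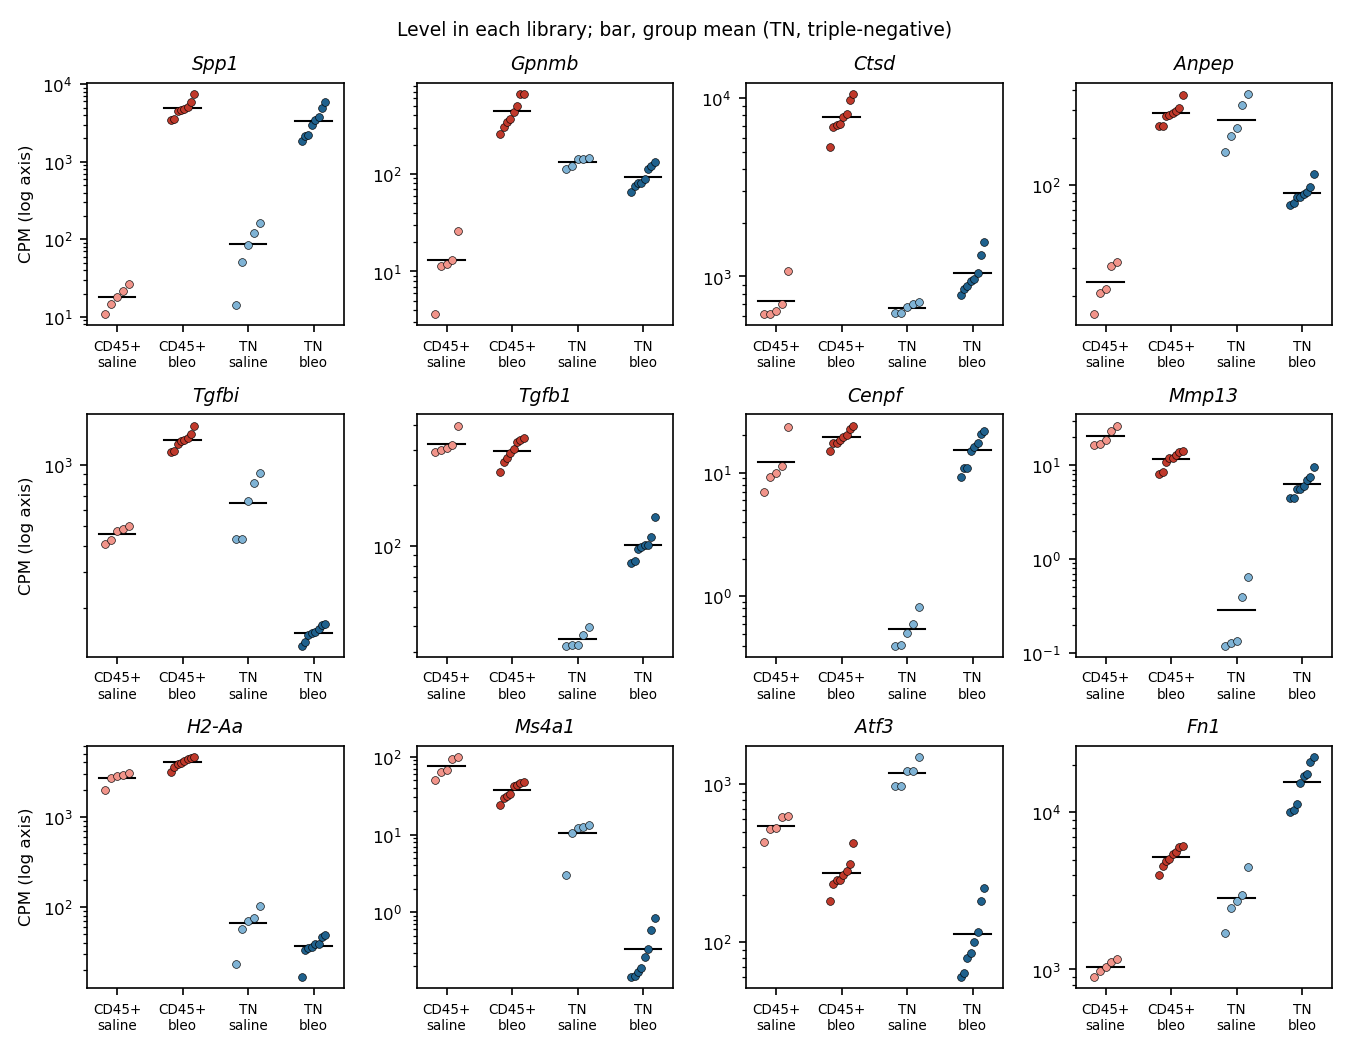
CPM (log axis) of 12 genes in each library, 1 point per library, with a bar at the group mean. Spp1 and Fn1 rise in both fractions, Gpnmb and Ctsd mainly in CD45+ cells, Cenpf mainly in triple-negative cells, and Anpep and Tgfbi in opposite directions.

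Collagen and matrix genes were called as rising more often in CD45+ cells, where their level was highest in the libraries with the most mesenchymal transcripts. Of 25 collagen and matrix genes, 21 rose and 1 fell in CD45+ cells, against 28.9% and 24.9% of all genes. In triple-negative cells 7 rose and 2 fell, where 21.4% of all genes rose and 26.2% fell, so the share that rose was near the background. The summed level of the list there was 54190 to 78220 CPM after saline and 98250 to 171800 CPM after bleomycin, without overlap. The fit takes a single spread per gene from all groups, so spread among CD45+ libraries also enters the calls in triple-negative cells. The difference was called for 3 higher and 1 lower (median 1.18), below the 22.3% and 14.2% of all genes. Without Bleomycin_CD45_613 and Bleomycin_CD45_616, which held the most mesenchymal transcripts, the counts turned to 1 higher and 7 lower. The mesenchymal markers that picked these libraries share genes with the matrix list, Lum among them. Leaving the libraries out therefore lowers matrix levels in the bleomycin CD45+ group by the choice itself. Col1a1, a chain of collagen I, was 13.4, 33.5, 38.4, 39.0 and 43.0 CPM in saline and 23.5 to 2486 CPM (median 115) in bleomycin CD45+ libraries. Among triple-negative libraries the values were 5187, 6045, 6250, 8096 and 8607 CPM after saline and 9659 to 22930 CPM (median 17550) after bleomycin. The triple-negative groups did not overlap, although the rise was not called there, and the CD45+ groups overlapped. The difference was 2.52 ± 1.07 (adjusted p = 0.0726) and 0.14 without both libraries, and it passed without Bleomycin_CD45_615 (2.70, 0.0373) or Bleomycin_CD45_618 (2.70, 0.0403). Col3a1, a chain of collagen III, differed by 2.10 ± 0.97 (0.098), and Timp1, an inhibitor of metalloproteinases, by 1.97 ± 0.86 (0.075), which passed without Bleomycin_CD45_615 (2.13, 0.0375) or Bleomycin_CD45_618 (2.12, 0.0430). Acta2, smooth muscle actin, differed by 1.79 ± 0.89 (0.125). Without Bleomycin_CD45_613 alone, the differences were 1.155 for Col1a1 (adjusted p = 0.262), 0.82 for Col3a1 (0.359), 1.07 for Timp1 (0.183) and 0.64 for Acta2 (0.432). Cthrc1, a gene of fibrosis-associated fibroblasts, rose in triple-negative cells from 2.20 ± 0.69 to 102 ± 57.9 CPM. Its difference was -1.82 ± 1.54 (0.419), and without both libraries -4.46 (adjusted p = 0.00234).

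Thbs1, the matrix protein thrombospondin-1, went against the list. It was 677, 738, 1056, 1575 and 1886 CPM in saline and 90.6 to 641.5 CPM (median 183) in bleomycin CD45+ libraries, without overlap. In triple-negative libraries it was 3146 to 6412 CPM after saline and 3678 to 11180 CPM after bleomycin (difference -2.74 ± 0.54, adjusted p = 3.07e-04). Adamts14, which trims procollagen, fell from 66.1 ± 11.2 to 18.9 ± 6.03 CPM in CD45+ cells and rose from 13.6 ± 3.42 to 36.3 ± 7.93 CPM in triple-negative cells (-3.22 ± 0.29, 5.48e-09). Plod1, a lysyl hydroxylase of collagen, differed by 1.11 ± 0.19 (5.18e-05). Col15a1, a collagen of basement membrane zones, differed by 2.14 ± 0.49 (0.00146), and by 1.46 without Bleomycin_CD45_613 and Bleomycin_CD45_616.

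Genes of adventitial fibroblasts fell in triple-negative cells. Of 15 tested, 11 fell and 0 rose there, 3 rose and 1 fell in CD45+ cells, and 10 had a higher and 0 a lower difference (median 1.77), or 6 and 0 without Bleomycin_CD45_613 and Bleomycin_CD45_616. Of all genes, 26.2% fell in triple-negative cells, 28.9% rose and 24.9% fell in CD45+ cells, and 22.3% had a higher difference. Serpinf1, an anti-angiogenic serpin, fell from 1049 ± 252 to 326 ± 43.0 CPM in triple-negative cells and was 10.8 ± 3.71 and 21.3 ± 19.8 CPM in CD45+ cells (2.66 ± 0.49, 1.51e-04, and 2.01 without both libraries). Col14a1, a fibril-associated collagen, differed by 1.53 ± 0.26 (5.90e-05). Scara5, a ferritin receptor, fell from 1024 ± 267 to 196 ± 71.2 CPM in triple-negative cells (3.36 ± 0.96, 0.00861, and 1.92 without Bleomycin_CD45_613, 1.12 with adjusted p = 0.107 without Bleomycin_CD45_613 and Bleomycin_CD45_616, and 1.39 with adjusted p = 0.217 by limma voom). Dcn, the proteoglycan decorin, fell from 6667 ± 733 to 2036 ± 410 CPM there (2.41 ± 0.84, 0.0287, 1.36 with adjusted p = 0.0616 without Bleomycin_CD45_613, 2.35 with 0.0611 by DESeq2, and 0.93 with 0.176 by limma voom). It also lost its call without Saline_CD45_647 (2.22, adjusted p = 0.0569). Of 16 alveolar fibroblast genes, 0 had a higher and 5 a lower difference (median -0.94), against 22.3% and 14.2% of all genes. Without Bleomycin_CD45_613 and Bleomycin_CD45_616, 11 had a lower one. The largest differences were -2.15 for Slc7a10, -1.66 for Ces1d, -1.60 for Limch1 and -1.48 for Npnt. Within the first stretch of columns they were -0.94, -0.070, -0.27 and -0.24, and none was called. With epithelial and endothelial marker covariates, Slc7a10, Ces1d and Npnt also lost their calls. Of 16 fibrosis-associated genes, 3 were higher and 2 lower, no more than the shares of all genes. The counts were 2 and 5 without Bleomycin_CD45_613 and Bleomycin_CD45_616. Runx1, a transcription factor, rose from 26.5 ± 6.08 to 150 ± 51.3 CPM in triple-negative and from 126 ± 4.70 to 191 ± 19.2 CPM in CD45+ cells (-1.90 ± 0.25, 1.69e-06). Comp, a cartilage matrix protein, went the other way (3.36 ± 0.57, 5.30e-05). Of 14 contractile genes of myofibroblasts, 0 were called, and of 12 pericyte genes 1 was.

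B cell genes fell in both fractions and further in triple-negative cells. Of 15 B and plasma cell genes, 13 fell in CD45+ cells (median -1.16) and 12 in triple-negative cells (median -3.82), against 24.9% and 26.2% of all genes. A higher difference was found for 11 and a lower one for 1 (median 2.44), against 22.3% and 14.2% of all genes. Ms4a1, which encodes CD20, was 50.5, 64.1, 68.5, 94.1 and 99.7 CPM in saline and 24.2 to 47.4 CPM (median 37.6) in bleomycin CD45+ libraries. The triple-negative level was 3.05, 10.6, 12.3, 12.6 and 13.2 CPM after saline and 0.145 to 0.847 CPM (median 0.228) after bleomycin. The groups did not overlap in either fraction (difference 3.78 ± 0.50, adjusted p = 7.23e-07). Cd79b, a subunit of the B cell receptor, differed by 2.83 ± 0.43 (1.14e-05), and Fcrla, an intracellular Fc receptor-like protein of B cells, by 2.84 ± 0.43 (4.01e-06). B cell genes mark cells of the CD45+ gate, and the part of their fall in differences of other genes in triple-negative libraries was not tested. Sdc1, a proteoglycan of plasma cells and epithelium, went the other way (-2.30 ± 0.27, 2.95e-07).

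All 8 MHC class II genes, which present antigen to helper T cells, had a higher difference (median 1.30), against 22.3% of all genes. In CD45+ cells 6 rose and in triple-negative cells 5 fell, against 28.9% and 26.2% of all genes. The count with a higher difference was 7 within the first stretch of columns, where 2581 of 18711 genes were higher. It was 1 within the second, where 2269 of 18684 were. H2-Aa was 1963, 2704, 2802, 2914 and 3053 CPM in saline and 3130 to 4581 CPM (median 4018) in bleomycin CD45+ libraries, and 23.3 to 104 CPM and 16.7 to 48.9 CPM in triple-negative libraries (1.42 ± 0.33, 0.00144). Of 14 dendritic cell genes, 10 were higher and 1 lower (median 1.70), against 22.3% and 14.2% of all genes. Within the second stretch the counts were 3 and 1. Clec9a, a receptor of cross-presenting dendritic cells, rose from 14.7 ± 2.20 to 52.0 ± 17.98 CPM in CD45+ cells (2.97 ± 0.44, 8.89e-06), and Flt3, a growth factor receptor of dendritic precursors, from 38.8 ± 3.56 to 111 ± 26.4 CPM (2.78 ± 0.47, 5.34e-05). Batf3, a transcription factor of these cells, rose in both fractions and more in triple-negative cells (-1.81 ± 0.28, 1.18e-05).

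Neutrophil, NK and T cell genes fell in CD45+ cells. Of 16 neutrophil genes, 10 fell and 0 rose there, against 24.9% and 28.9% of all genes, and 5 had a lower difference and 0 a higher one, against 14.2% and 22.3%. Bleomycin_CD45_616 stood apart, with a neutrophil sum of 4177 CPM against 930.5 to 2069 CPM in the other 7 bleomycin and 2859 to 5300 CPM in the saline CD45+ libraries. Without it, 12 fell in CD45+ cells and 8 had a lower difference. Il1r2, a decoy receptor for interleukin 1, was 255, 474, 529, 537 and 640.6 CPM in saline and 21.8 to 86.2 CPM (median 34.8) in bleomycin CD45+ libraries, against 2.69 to 4.95 and 2.24 to 3.12 CPM in triple-negative libraries (-2.92 ± 0.39, 3.01e-06, and -3.15 without Bleomycin_CD45_616). Lcn2, an iron-sequestering protein that epithelium also makes, rose in triple-negative cells from 2.55 ± 0.78 to 30.04 ± 13.6 CPM (-3.76 ± 0.64, 6.27e-05). Of 12 NK cell genes, 11 fell in CD45+ cells, and 5 were lower and 1 higher in the difference, with 0 and 1 within the first stretch of columns. In triple-negative libraries the 12 genes summed to only 2.16 to 7.56 CPM after saline and 0.906 to 3.36 CPM after bleomycin. The triple-negative side of these differences therefore rests on few counts. Gzmb, granzyme B, was the higher one (2.68 ± 0.56, 1.24e-04), although its level fell in both fractions. It went from 76.7 to 90.6 CPM after saline to 15.5 to 30.4 CPM after bleomycin in CD45+ libraries. The triple-negative libraries had 1.02 to 4.84 CPM after saline and 0 to 0.242 CPM after bleomycin. Within the second stretch of columns the difference was 1.23 (adjusted p = 0.083). Of 16 T cell genes, 12 fell and 1 rose in CD45+ cells, and 6 were lower and 2 higher. Foxp3, the factor of regulatory T cells, was the gene that rose, from 27.1 ± 4.62 to 68.4 ± 15.01 CPM, and it was 8.02 ± 0.83 and 7.66 ± 0.92 CPM in triple-negative cells (1.40 ± 0.20, 3.69e-06). Tcf7, a factor of naive T cells, fell from 380 ± 141 to 168 ± 41.4 CPM in CD45+ cells and rose from 19.2 ± 3.93 to 36.5 ± 4.62 CPM in triple-negative cells (-2.10 ± 0.26, 8.53e-07).

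In the TGF-β pathway, 3 of 25 genes were higher and 3 lower, no more than the 22.3% and 14.2% of all genes, so the list as a whole did not stand apart. Tgfb1, the ligand, was 292, 300, 306, 317 and 396 CPM in saline and 232 to 342 CPM (median 298) in bleomycin CD45+ libraries, which overlapped. Triple-negative libraries had 32.1, 32.2, 32.5, 36.2 and 39.7 CPM after saline and 82.2 to 140 CPM (median 99.6) after bleomycin, without overlap (difference -1.68 ± 0.16, adjusted p = 7.30e-09). Tgfbr1, the type I receptor, rose from 88.4 ± 5.04 to 209 ± 24.9 CPM in CD45+ cells and was 76.8 ± 5.66 and 76.7 ± 8.70 CPM in triple-negative cells (1.25 ± 0.12, 6.77e-09). Tgfbr2, the type II receptor, had a lower effect in CD45+ cells (-0.58 ± 0.10, 7.11e-05), as had Smad3, a signal transducer of the pathway (-1.46 ± 0.15, 2.51e-08). Tgfbi, a matrix protein induced by the pathway, rose from 458 ± 38.5 to 1313 ± 131 CPM in CD45+ cells and fell from 650 ± 216 to 151 ± 12.7 CPM in triple-negative cells (3.63 ± 0.19, 1.18e-12).

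Among growth factors, 5 of 22 were higher and 3 lower, close to the 22.3% and 14.2% of all genes. Pdgfc, a PDGF ligand, rose from 3.09 ± 1.96 to 23.8 ± 3.49 CPM in CD45+ cells and was 21.6 ± 6.25 and 26.9 ± 7.81 CPM in triple-negative cells (2.60 ± 0.38, 7.15e-06). Vegfa, an angiogenic factor, fell from 131 ± 10.4 to 31.6 ± 13.4 CPM in CD45+ cells and was 313 ± 88.3 and 306 ± 41.8 CPM in triple-negative cells (-2.02 ± 0.29, 4.85e-06). Igf2, an insulin-like growth factor, fell from 111 ± 25.3 to 20.2 ± 5.00 CPM in triple-negative cells (1.503 ± 0.31, 4.44e-04). Of 16 complement genes, 6 were higher and 0 lower. Cfb, complement factor B, rose from 22.5 ± 8.81 to 242 ± 40.9 CPM in CD45+ cells and was 597 ± 39.7 and 600 ± 117 CPM in triple-negative cells (3.42 ± 0.25, 1.69e-10).

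Of 25 chemokines, 9 were higher and 1 lower, against 22.3% and 14.2% of all genes. Ccl4, a chemokine of myeloid cells, fell from 117 ± 28.9 to 27.2 ± 6.76 CPM and from 21 ± 12.6 to 0.727 ± 0.600 CPM (2.66 ± 0.55, 3.75e-04). Cxcl1, a neutrophil attractant, fell in triple-negative cells from 457 ± 187 to 45.3 ± 11.6 CPM (2.65 ± 0.42, 2.81e-05). Ccl5, a chemokine of T and NK cells, fell in CD45+ cells from 269 ± 28.1 to 109 ± 17.6 CPM (-1.71 ± 0.29, 4.02e-05). Ccl11, eotaxin, differed by 4.24 ± 1.24 (0.00343), by 2.77 without Bleomycin_CD45_613, and limma voom with quality weights did not call it (2.15, adjusted p = 0.0738). Of 20 inflammatory cytokines, 5 were higher and 6 lower. Osm, oncostatin M, fell in triple-negative cells from 25.03 ± 16.6 to 4.08 ± 2.10 CPM and was 199 ± 32.4 and 269 ± 85.5 CPM in CD45+ cells (3.06 ± 0.53, 7.72e-05). Areg, an EGF receptor ligand, fell in CD45+ and rose in triple-negative cells (-3.25 ± 0.38, 1.72e-07). Il6 fell from 163 ± 11.7 to 13.2 ± 10.8 CPM in triple-negative and from 11.8 ± 2.10 to 2.56 ± 1.22 CPM in CD45+ cells. Its difference was 1.41 ± 0.49 (0.0278), which lost its call without the filter on low counts (1.41, adjusted p = 0.0509) and without Saline_CD45_646 or Bleomycin_CD45_619 and was 1.89 without Bleomycin_Negative_638.

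Of 29 interferon response genes, 13 were lower and 4 higher, against 14.2% and 22.3% of all genes. In triple-negative cells 21 rose, against 21.4% of all genes, and in CD45+ cells 11 rose, against 28.9%. Rsad2, the antiviral protein viperin, rose from 3.50 ± 1.18 to 8.99 ± 1.37 CPM in triple-negative cells and was 27.6 ± 5.45 and 22.9 ± 4.16 CPM in CD45+ cells (-1.64 ± 0.24, 6.84e-06). Oas3 and Oas2, sensors of double-stranded RNA, differed by -2.04 ± 0.41 (2.27e-04) and -1.56 ± 0.25 (1.96e-05). The 4 genes that went the other way were Ifit2, Gbp2, Gbp5 and Gbp7, of which Gbp5, a guanylate-binding protein, differed most (1.21 ± 0.16, 1.87e-06).

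Immediate early genes, transcription factors induced within minutes by many stimuli, tissue dissociation among them, fell more in triple-negative cells. Of 20 tested, 18 fell there and 13 in CD45+ cells, against 26.2% and 24.9% of all genes, and 9 were higher and 2 lower (median 0.70), against 22.3% and 14.2%. Atf3 was 970, 984, 1219, 1223 and 1491 CPM in saline and 60.1 to 220 CPM (median 93.7) in bleomycin triple-negative libraries. In CD45+ libraries it was 431, 523, 531, 622.3 and 633.1 CPM after saline and 184 to 425 CPM (median 258) after bleomycin. The groups did not overlap in either fraction (difference 2.38 ± 0.36, adjusted p = 1.18e-05). Fos fell from 5474 ± 845 to 1600 ± 539 CPM in triple-negative cells and was 1382 ± 86.0 and 1447 ± 260 CPM in CD45+ cells (1.84 ± 0.25, 2.90e-06). Fosl1 went the other way (-1.08 ± 0.31, 0.00832).

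Of 22 metalloproteinases and inhibitors, 7 were higher and 7 lower, against 22.3% and 14.2% of all genes. Adam12, a membrane protease of activated fibroblasts, rose from 3.70 ± 1.23 to 54.5 ± 24.7 CPM in triple-negative cells and was 4.78 ± 2.44 and 2.86 ± 2.64 CPM in CD45+ cells (-4.62 ± 0.62, 3.36e-06). Mmp9, a gelatinase of neutrophils, fell in CD45+ and rose in triple-negative cells (-3.49 ± 0.54, 1.96e-05). Bleomycin_CD45_616 held 410.5 CPM of Mmp9, above every saline CD45+ library (215.5 to 380.4 CPM), and without it the difference was -3.998. Of 18 p53 targets, 3 were higher and 7 lower. Tnfrsf10b, a death receptor, fell from 8.78 ± 1.76 to 3.38 ± 0.72 CPM in CD45+ and rose from 5.36 ± 0.40 to 11.4 ± 1.28 CPM in triple-negative cells (-2.46 ± 0.20, 5.77e-10). Cdkn1a, the cell cycle inhibitor p21, was 262 ± 38.9 and 238 ± 38.0 CPM in CD45+ and 284 ± 57.2 and 293 ± 38.6 CPM in triple-negative cells, and its difference did not pass the threshold (-0.19 ± 0.18, 0.446).

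The counts of the metabolic and stress lists stand against 22.3% higher and 14.2% lower among all genes. Of 20 respiratory chain genes, 11 were higher and 1 lower, with a median of 0.24, or 6 and 1 with upper quartile scaling. Of 22 sterol and fatty acid genes, 10 were higher and 2 lower, or 6 and 4 with upper quartile scaling. Of 18 genes of protein folding in the ER, 9 were higher and 1 lower, and within the first stretch of columns 1 and 1. Of 20 glycolysis genes, 6 were higher and 2 lower, near the background: Pfkp, a phosphofructokinase, differed by 1.42 ± 0.11 (5.86e-10), and Slc16a3, a lactate exporter, by -1.65 ± 0.30 (1.14e-04). Of 19 antioxidant genes, 8 were higher and 4 lower. Prdx1, a peroxiredoxin, rose from 93.2 ± 7.80 to 375 ± 84.0 CPM in CD45+ cells and from 115 ± 3.38 to 147 ± 15.3 CPM in triple-negative cells (1.65 ± 0.17, 2.43e-08). Of 12 heat shock genes 1 was called, Bag3, a co-chaperone (1.34 ± 0.16, 2.38e-07).

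**Figure D4:**
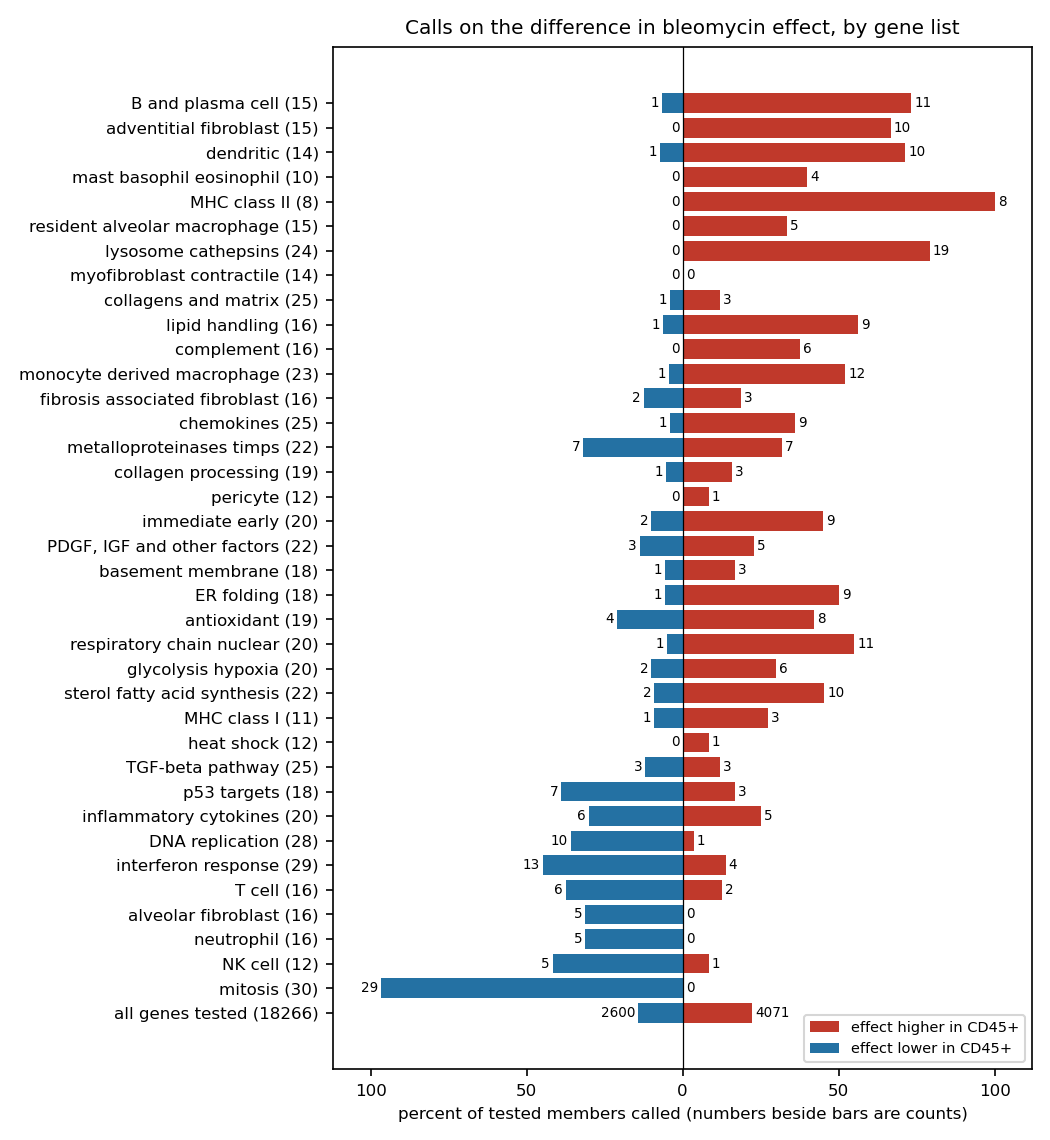
Percent of tested members of each gene list called with a higher (right) or lower (left) bleomycin effect in CD45+ cells; numbers beside the bars are counts, numbers in brackets are members tested, and lists are ordered by median difference above the bar for all 18266 genes. Mitosis had 29 of 30 members lower, lysosome 19 of 24 higher, and myofibroblast contractile genes 0 calls.

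Some genes moved alike in both fractions. Fn1, fibronectin, was 892, 975, 1032, 1120 and 1165 CPM in saline and 3976 to 6119 CPM (median 5231) in bleomycin CD45+ libraries. Among triple-negative libraries the values were 1703, 2468, 2737, 2960 and 4474 CPM after saline and 9999 to 22540 CPM (median 16180) after bleomycin. It rose without overlap in both, by 2.33 ± 0.20 and 2.45 ± 0.20 on the log2 scale, and the difference was -0.12 ± 0.28 with a 95% interval from -0.70 to 0.46. Cxcl9, a chemokine induced by interferon gamma, rose by 2.44 ± 0.24 and 2.70 ± 0.26. Nr4a3, an orphan nuclear receptor, fell from 228 ± 61.7 to 50.7 ± 9.29 CPM in CD45+ and from 414 ± 80.6 to 92.7 ± 38.4 CPM in triple-negative cells, with an interval of the difference from -0.70 to 0.68. Gem, a small GTP-binding protein, fell from 34.5 ± 4.69 to 10.1 ± 2.17 CPM and from 313 ± 65.4 to 86.4 ± 20.4 CPM. These genes were chosen for intervals within 2-fold, so the intervals describe the choice.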

How the data were processed

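RNA from sorted mouse lung cells was sequenced, and the authors deposited raw read counts per gene identifier. The genome was GRCm38, per the submitters' processing notes, and the labels describe stranded total RNA libraries. The aligner, counter and annotation are not given in the sources used here. The 26 columns of the 4 groups were used, with 17789524 to 36514885 counts each, and 25 columns of the other fractions entered 1 alternative. Of 36528 identifiers, 31049 were named from RefSeq. Those without a symbol held 1.94% of the counts. Intervals cover the spread between libraries, and nothing in the labels tied libraries to single animals across fractions.

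Genes were filtered with filterByExpr, scaled with TMM and tested 2-sided with the quasi-likelihood test of edgeR 4.0.16 in R 4.3.3, in 1 fit of 4 group means. P-values were adjusted over all 18266 genes tested. Standard errors are Wald errors of the fit. The fit was tested on simulated data. Alternatives used RLE and upper quartile scaling, TMM within each fraction, other low-count filters, all 51 libraries, marker or column covariates, DESeq2 1.42.0, limma 3.58.1 with voom, and leaving out each library.

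The 45 gene lists held 766 entries, of which 1 was not found. The members and lists were chosen with earlier results of these data known. Named genes were the 10 largest differences, the 5 clearest opposite changes and the 5 clearest shared changes each way. These reached a mean of 5 CPM in at least 1 group. Named without that floor were up to 4 called members of each list with the largest difference and members against their list's majority. A fixed set, also without the floor, included Ptprc, Col1a1, Spp1 and Mki67. Lamp1 was added for its promoter after values were seen. Promoter motifs were counted on both strands.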

Additional observations from a re-analysis of the deposited data

Results flagged for a closer look

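The bleomycin effect differed between the fractions for 4071 genes that were higher and 2600 that were lower in CD45+ cells. Among named genes with opposite changes, both called, the log2 difference was 5.34 for Vwa1, 4.82 for Scin, 4.74 for Ptx3, 4.44 for Prokr1 and 3.73 for Qpct. It was -10.5 for Syt13, -5.98 for Serpinb2, -5.87 for Gjb2, -3.71 for Mex3a and -3.53 for Slc7a11.

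In 23 of 236 groups of values 1 library stood far from the rest of its group. The rule used gives about 1 in 20 for independent, normally spread values. CPM need not be spread so, and many of these genes were chosen for large differences. Bleomycin_CD45_613 alone gave 11 of the flags, so the rates are not comparable. Bleomycin_CD45_613 stood high for Col1a1 (2490 CPM), Col3a1 (2220 CPM), Acta2 (206 CPM), Timp1 (190 CPM), Cthrc1 (23.3 CPM), Ptx3 (9.10 CPM), Lrp11 (5.66 CPM), Syt13 (1.11 CPM) and Tnfsf18 (0.506 CPM). Its summed mesenchymal markers were 8300 CPM and its summed epithelial markers 2260 CPM. Bleomycin_CD45_616 stood high for Bmp2 (5.08 CPM). Saline_CD45_646 stood high for Syt13 (102 CPM), Hivep3 (39.4 CPM) and Mex3a (29.7 CPM), and Saline_CD45_647 for Tgfb1 (396 CPM).

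In saline triple-negative cells, Saline_Negative_663 stood high for Tg (250 CPM) and Saline_Negative_661 for the erythroid sum (80.4 CPM). In bleomycin triple-negative cells, Bleomycin_Negative_638 stood high for Il6 (39.5 CPM) and Bleomycin_Negative_642 for its total (35.3 M counts). Bleomycin_Negative_639 stood high for Gpr132 (3.87 CPM) and the mitochondrial share (1.23%) and low for Tnfsf9 (3.13 CPM). The part of these libraries in other results was not tested beyond the fits that left them out.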

How the results depend on the processing

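No paired analysis was possible because the groups compared share no replicate numbers. Of the calls on the difference, 91.4% remained with RLE scaling, 84.2% with upper quartile scaling and 90.8% with limma voom, and 0 changed sign in these. DESeq2 gave 3814 higher and 3495 lower. Lower calls numbered 3963 with upper quartile scaling. Fits within each stretch of columns, and those leaving out 2 or 3 libraries that stood apart, were chosen after seeing the data. The first stretch gave 2581 higher and 1477 lower, with 55 calls of opposite sign, and the second 2269 higher, with 14. In the second, 2376 genes rose and 2895 fell in triple-negative cells. With epithelial and endothelial marker covariates, 2883 rose and 1321 fell in CD45+ cells, and 1635 and 1358 in triple-negative cells. Leaving out 1 library gave 3526 to 4057 higher and 2356 to 2866 lower.

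Signs turned mainly for shared changes near 0. They also turned for Elf3 (-2.12 in the main fit), Sftpc (-1.87), Mal (-1.47) and Treml1 (3.05), all called in the main fit. Epcam (1.32) and Acta2 (1.79), not called there, turned too. The cause was not tested. In the first stretch the differences were 0.16 for Cxcl9, 0.19 for Hivep3, 0.043 for Bmp2, -0.22 for Tnfsf9, -0.12 for Gem, 1.35 for Elf3, 0.58 for Sftpc and 1.18 for Mal. In the second they were 0.26 for Fn1, -0.53 for Dpep2, 0.22 for Gpr132, -1.64 for Treml1 and -1.20 for Epcam. With voom they were 0.29 for Nr4a3, 0.082 for Gpr132 and -0.17 for Tnfsf9. With marker covariates they were 0.0049 for Nr4a3, -0.16 for Tnfsf9 and -0.057 for Gem. Upper quartile scaling gave -0.073 for Tnfsf9 and -0.063 for Gem, and all 51 libraries -0.02 for Tnfsf9 and -0.015 for Gem. Without Bleomycin_CD45_613 and Bleomycin_CD45_616 they were -0.11 for Acta2 and 0.086 for Nr4a3, and without 3 libraries 0.28 for Nr4a3. Leaving out 1 library gave -0.33 to 0.024 for Fn1, -0.28 to 0.087 for Lrp11, -0.053 to 0.52 for Dpep2, -0.11 to 0.14 for Nr4a3, -0.28 to 0.13 for Gpr132, -0.37 to 0.075 for Bmp2, -0.087 to 0.25 for Tnfsf9 and -0.026 to 0.16 for Gem. Genes near 0 counts and groups of 5 limit the precision.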
